A study of Mus musculus with 22 samples.

Results

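The comparison described here set mouse embryonic stem (ES) cell lines kept in 2i medium against ES lines kept in serum. Its members were the 10 arrays whose titles name an ES line in fetal calf serum (FCS) or in 2i, 5 in each culture, out of 22 arrays in the series; the other 12 were embryonic germ (EG) cell lines. ES FCS lines grew in medium with 15% FCS and leukaemia inhibitory factor (LIF) on a feeder layer of mouse embryonic fibroblasts. ES 2i lines grew on laminin in N2B27, a defined medium without serum, to which LIF and a pair of inhibitors were added, PD0325901 against MEK and CHIR99021 against GSK3. Serum, feeders, substrate and inhibitors changed together, so what each of them contributed cannot be told apart. The strain label of all lines names 129SvEv crossed to an Oct4-delta-PE-GFP transgenic, on a mixed background; the transgene reports on the pluripotency gene Pou5f1. Per the series text they came from genetically identical embryos, and established ES lines were also moved from 1 culture to the other. In each culture lines 1 and 3 were female and lines 2, 4 and 5 male, lines 1 and 2 carried the label batch 1 and lines 3, 4 and 5 batch 2, so sex and batch were balanced between the cultures. Whether an FCS array and a 2i array of the same number hold the same line is not stated, nor is there anything on separate cultures, so p-values measure only the spread between these samples.

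The title decided the group, because the cell type field of all 10 ES arrays reads EGCs, the abbreviation used for the germ cell lines, while title and source name say ES. Of 12 ES cell markers measured, none lay below background in both cultures. The same held for the 11 neural genes measured, so this does not identify the cell type or tell ES from EG lines. Background was taken as 4.88 on the log2 scale, the highest level of the Y-linked gene Eif2s3y in a female line. Eif2s3y itself read 4.88, 8.10, 4.72, 8.26 and 8.48 in FCS lines 1 to 5 and 4.73, 8.23, 4.70, 8.81 and 8.71 in 2i lines 1 to 5, so that both female lines of each culture lay at background and every male line was well above it, matching the sex labels. Above this level in the mean of at least 1 group of the series, EG groups included, lay 16170 of 19938 genes. In the ES lines 4289 genes had means below it in both cultures.

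ES cells in serum receive an autocrine FGF4 signal that runs through the kinases MEK and ERK and prepares them to differentiate. Inhibition of MEK blocks that step, and inhibition of GSK3 stabilises beta-catenin and so relieves repression of pluripotency genes by the factor Tcf7l1. Cells in 2i are known as a ground state with a uniform naive phenotype, low de novo DNA methyltransferase levels and a genome with little DNA methylation, while serum cultures are mixed and heavily methylated.

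A culture at or below background has only a bound, and such genes are given as at least a fold or log2 difference, from the mean of the brighter culture to background or to the dimmer arrays where they lay above it. Values are log2 RMA levels, 1 per gene and array, and every difference is 2i minus FCS with limma's standard error (SE), from a fit of all 22 arrays with group, batch and sex. A gene was called at an adjusted p under 0.05, and RMA levels of different genes were not set against each other because probe sets differ in their response. Culture was the main axis. The first principal component of the 10 ES arrays held 64.1% of the variance. On it the FCS lines scored -34.3 to -19.8 and the 2i lines 23.2 to 35.3. The second held 12.4% and placed 2i line 3 at 32.0, apart from the others, which lay between -16.3 and 7.52. Within each culture the female lines lay higher on it than the male lines.

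A pair of arrays stood apart from their groups. 2i line 3 differed at least 2-fold from the mean of the other 2i lines in 290 genes, against 22 to 88 genes for the other 4 lines. Among the 768 genes called at that fold between the cultures, line 3 lay on the FCS side of the midpoint in 119, and the other 2i lines did so in 10 to 17. FCS line 1 lay on the 2i side in 61 of them and the other FCS lines in 2 to 31. The genes that were higher in 2i line 3 than in the other 2i lines by the widest margin were Lefty1 at 9.56 against 5.11 to 7.19, Usp26 at 9.21 against 4.97 to 6.82, and Lefty2 at 10.30 against 6.47 to 7.98. Lefty1 and Lefty2 encode secreted antagonists of Nodal. Pou2f3 was lower in that line, at 5.04 against 7.20 to 8.16. Some of the values that rest on it are given with and without it, and the others only with it. The count of genes called between the cultures was 6298 with it and 6125 without it.

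Female ES cells can keep both X chromosomes active. X-linked genes separated the lines by sex, and 2i line 3 stood highest. The median log2 difference from the male lines of the same culture, over 561 X-linked genes above background, was 0.17 and 0.23 in FCS lines 1 and 3 and 0.24 and 0.43 in 2i lines 1 and 3, all female. Male lines lay between -0.03 and 0.05, and the same median over 15029 autosomal genes lay between -0.03 and 0.01 in all 10 arrays. In 2i line 3, 258 of these X-linked genes exceeded the male mean by over 0.5, against 114 in 2i line 1, 100 in FCS line 1 and 111 in FCS line 3. Of the 15 genes most raised in 2i line 3 against the other 2i lines, 7 were X-linked. Xist, the RNA that coats and silences an X chromosome, was at 6.34 in FCS line 3 and between 4.38 and 5.05 in the other 9 arrays, around the background level.

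**Figure D1:**
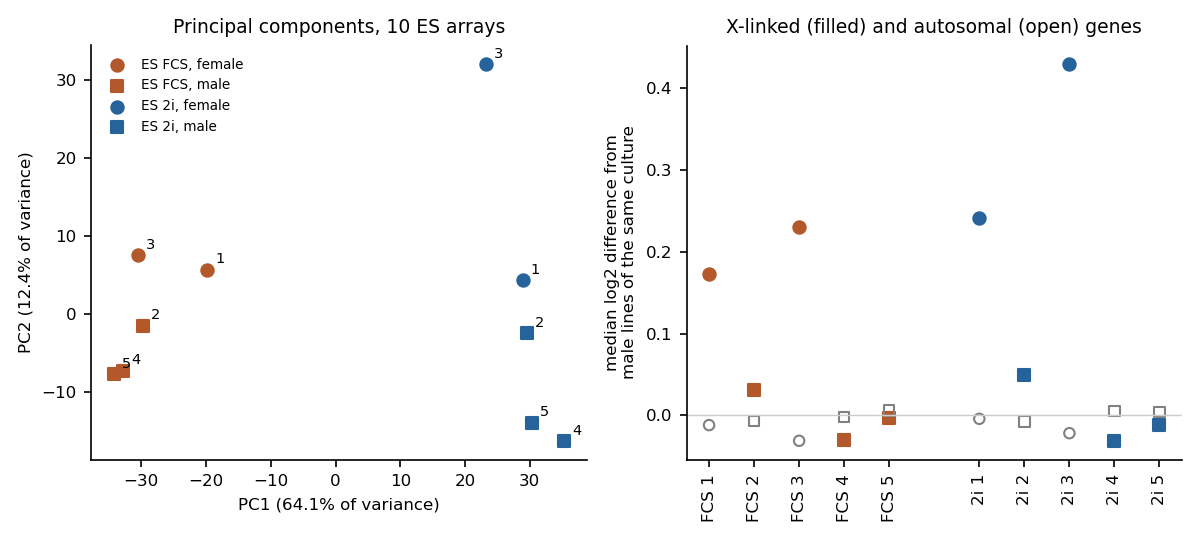
Left, the first and second principal components of the 10 ES arrays, numbered by line (circles female, squares male; brown FCS, blue 2i). Right, the median log2 difference of each array from the male lines of its culture, over X-linked genes (filled) and autosomal genes (open); the 4 female arrays lie between 0.17 and 0.43, and 2i line 3 is the highest.

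Between the cultures 6298 of 19938 genes passed the threshold, with 3319 rises and 2979 falls in 2i, which is 31.6% of the genes tested (16.6% higher and 14.9% lower). At least 2-fold differences among them numbered 768 (3.85%), of which 401 were higher (2.01%) and 367 lower (1.84%). The largest differences were falls: at 4-fold or more there were 40 rises and 60 falls, and at 8-fold or more 5 rises and 11 falls. In 4418 genes (22.2%) every 2i line lay on the same side of every FCS line. The same sign within batch 1 and within batch 2 was seen in 6250 of the 6298 called genes and 767 of the 768. These genes were called from the same arrays, so a shared sign is largely built in and is no independent check. Fitted alone, batch 1 with 2 arrays against 2 gave 2921 calls and batch 2 with 3 against 3 gave 6114; 2349 genes were called in both with the same sign and 7 with opposite signs. The counts of gene list members that follow are read against these shares of all genes, and a list whose share lies near them shows nothing particular.

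Among genes whose cultures did not overlap, predicted genes left out and ranked by the measured difference, the largest falls in 2i included genes of the cell surface, of the cytoskeleton and of the ERK response. Thbs1 (Entrez gene 21825, chromosome 2), which encodes the matrix protein thrombospondin-1, read 10.67, 8.75, 9.77, 9.08 and 9.03 in FCS lines 1 to 5 and 5.43, 5.31, 4.57, 5.46 and 5.13 in 2i lines 1 to 5. No array of a culture came near the other culture, and FCS line 1 was the highest; the difference was -4.28 ± 0.31 (SE; limma, adjusted p = 7.47e-09), 19.4-fold lower in 2i. Next was Acta2 (Entrez gene 11475, chromosome 19), smooth muscle alpha-actin, whose difference was -4.05 ± 0.26 (adjusted p = 1.58e-09).

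Esrp1 (Entrez gene 207920, chromosome 4), a splicing regulator of epithelial cells, read 8.62, 9.07, 9.28, 9.16 and 9.49 in FCS lines and 4.91, 5.22, 4.80, 5.45 and 5.61 in 2i lines. The groups lay over 3 log2 units apart at their nearest arrays and the difference was -3.92 ± 0.15 (SE; limma, adjusted p = 2.39e-12). Surface enzymes followed. Car4, a membrane-bound carbonic anhydrase, fell by 3.87, and Enpp3, an ectonucleotidase, fell by 3.51. Transporters among the 12 largest falls were Slc7a7 for cationic amino acids (-3.11), Slc27a2 for long-chain fatty acids (-3.10) and Slc39a14 for zinc, iron and manganese (-3.0). In Slc27a2 2i line 3 was the highest of its culture at 7.59 and FCS line 1 the lowest at 7.93. Bgn, which encodes the matrix proteoglycan biglycan, had a mean of 7.88 in FCS and one at background in 2i, so that it was at least 6.91-fold lower. Dusp6, Myc and Fosb complete the 12 and are described with the ERK response.

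The largest rises in 2i included a homeobox gene and enzymes of 1-carbon and sulphur amino acid metabolism. Crxos (Entrez gene 546024, chromosome 7), a homeobox gene, read 5.69, 4.82, 5.39, 4.91 and 5.03 in FCS lines and 8.67, 9.06, 7.30, 9.62 and 9.06 in 2i lines. Here 2i line 3 was the lowest of its culture but still above every FCS line, and the difference was 3.57 ± 0.29 (SE; limma, adjusted p = 2.61e-08), 11.9-fold. Dmgdh, mitochondrial dimethylglycine dehydrogenase, had a mean at background in FCS and one of 8.02 in 2i, at least 8.13-fold higher. Bhmt, which methylates homocysteine with betaine, read 5.20, 4.89, 5.30, 5.34 and 5.19 in FCS lines and 8.86, 8.80, 6.30, 8.55 and 8.46 in 2i lines. Lines 1, 2, 4 and 5 lay close together in 2i and line 3 more than 2 log2 units below them; the difference was 3.01 ± 0.49 (SE; limma, adjusted p = 7.74e-05), and 3.62 without 2i line 3.

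Cdo1, cysteine dioxygenase, showed the same low value in 2i line 3: FCS lines read 6.36, 5.66, 5.89, 5.97 and 6.43 and 2i lines 8.93, 9.52, 7.21, 9.74 and 9.44, with a difference of 2.91 ± 0.33 (adjusted p = 1.83e-06), and 3.24 without it. Aldh1l1 was steady across the 2i lines. This gene of a folate enzyme, formyltetrahydrofolate dehydrogenase, read 5.57, 4.91, 5.51, 5.36 and 5.29 in FCS and 8.05, 8.32, 8.12, 8.73 and 8.45 in 2i, and the difference was 3.0 ± 0.19 (SE; limma, adjusted p = 1.05e-09). The remaining rises of the 12 were Lrrc31 (2.85), the aspartoacylase gene Aspa, the fatty acid elongase gene Elovl7 (2.78), the homeobox gene Meis2 (2.73), the alcohol dehydrogenase gene Adh1, the endocytic receptor gene Ly75 (2.63) and Car8, a relative of the carbonic anhydrases (2.61). Mean levels of Aspa and Adh1 in FCS lines were below background, and both were at least 6.0-fold and 5.65-fold higher in 2i.

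**Figure D2:**
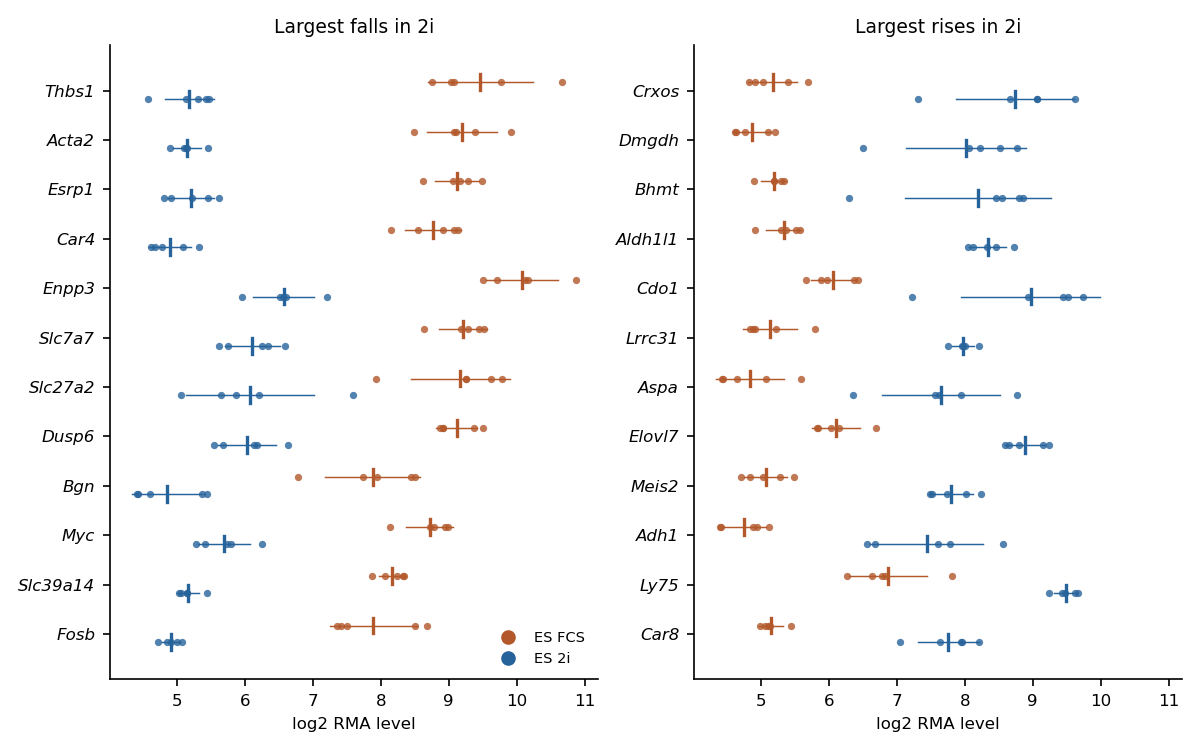
The 12 largest falls (left) and 12 largest rises (right) in 2i among called genes whose groups do not overlap and whose batches share a sign, ranked by measured difference, predicted genes without a described name left out, as log2 RMA levels. Points are single arrays (5 per culture), vertical bars means and horizontal lines the SD; in Bhmt 1 blue point, 2i line 3 at 6.30, lies far below the other 2i lines.

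Feedback inhibitors of ERK signalling, which ERK itself induces, were lower in 2i. Of 12 members measured, 12 were called lower, against 14.9% of all genes, and their median difference was -1.19 against 0.00 over all genes. The means of 1 member lay below background in both cultures, where the size of a fall cannot be read. Dusp6 (Entrez gene 67603, chromosome 10), a phosphatase that inactivates ERK, read 9.51, 9.37, 8.91, 8.92 and 8.86 in FCS lines and 5.55, 5.67, 6.63, 6.18 and 6.13 in 2i lines. No arrays overlapped, FCS lines 1 and 2 were the highest and 2i lines 1 and 2 the lowest; the difference was -3.08 ± 0.18 (SE; limma, adjusted p = 5.15e-10), with -3.83 within batch 1 and -2.59 within batch 2. Dusp4, a related nuclear phosphatase, had a mean of 7.71 in FCS and lay below background in all 2i lines but line 3, at 5.67, at least 6.35-fold lower.

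Spry4, of the Sprouty family that blocks receptor signalling upstream of ERK, read 7.64, 7.83, 8.22, 8.12 and 8.12 in FCS and 5.16, 5.34, 4.99, 5.21 and 5.17 in 2i, a narrow spread in both, and the difference was -2.81 ± 0.15 (SE; limma, adjusted p = 1.74e-10). Spry2 and Spry1 fell by 1.10 and 1.01, Spred1 and Spred2, which act on Ras, by 1.28 and 0.54, and Dusp5 by 1.95. The differences of Il17rd at -0.38 and Spred3 at -0.37 each rested on single arrays. Il17rd lost its call without 2i line 2 (adjusted p = 0.113), 2i line 3 (0.127), FCS line 1 (0.0904), FCS line 4 (0.0784) or FCS line 5 (0.0778), and Spred3 without 2i line 1 (adjusted p = 0.103), 2i line 2 (0.0952), 2i line 3 (0.132), FCS line 1 (0.0777), FCS line 2 (0.121), FCS line 4 (0.0709) or FCS line 5 (0.106).

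Immediate early genes and ETS factors, transcription factors switched on by ERK within minutes or maintained by it, fell nearly as widely: 15 of 17 were called lower and 0 higher, with a median of -1.0. Myc (Entrez gene 17869, chromosome 15), a growth regulator, read 8.79, 8.14, 8.99, 8.73 and 8.95 in FCS lines and 5.79, 5.41, 5.27, 5.74 and 6.25 in 2i lines. The cultures were far apart in each array and the difference was -3.03 ± 0.16 (SE; limma, adjusted p = 1.74e-10), 8.15-fold lower in 2i. Egr1, a zinc finger factor, lay below background in all 2i lines and was at least 4.29-fold lower there (mean of 6.98 in FCS; adjusted p = 1.44e-12). Jun fell by 2.35, Etv4 by 1.85 and Etv1 by 1.08. Egr3 was not called at -0.16. Elk3, an ETS factor of the ternary complex with SRF, was not called at 0.17 overall. It was lower in batch 1 (-0.52, adjusted p = 0.0464) and higher in batch 2 (0.63, adjusted p = 0.00681).

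Fos and Fosb, partners of Jun in the factor AP-1, differed by batch. Fos read 8.82, 8.52, 6.98, 7.21 and 7.12 in FCS lines and 4.54, 4.24, 4.91, 5.18 and 4.93 in 2i lines, and the measured difference was -2.97 ± 0.29, limma, adjusted p = 2.39e-07. Its 2i mean lay below background, so the fall was at least 6.83-fold. FCS lines 1 and 2, the batch 1 lines, were the highest. The difference was -4.28 within batch 1 and -2.10 within batch 2. Fosb read 8.50, 8.68, 7.36, 7.42 and 7.50 in FCS and 4.72, 4.85, 4.91, 5.07 and 5.0 in 2i, again with lines 1 and 2 highest in FCS (-3.80 within batch 1, -2.43 within batch 2; -2.98 ± 0.17, limma, adjusted p = 4.37e-10). Dusp1, a stress-induced phosphatase that is also an immediate early gene, showed -2.31 and -0.68 in the batches. Each of the 3 batch differences was called by a test of the interaction of culture and batch, which called 0 genes without 2i line 2 and 0 without FCS line 5.

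**Figure D3:**
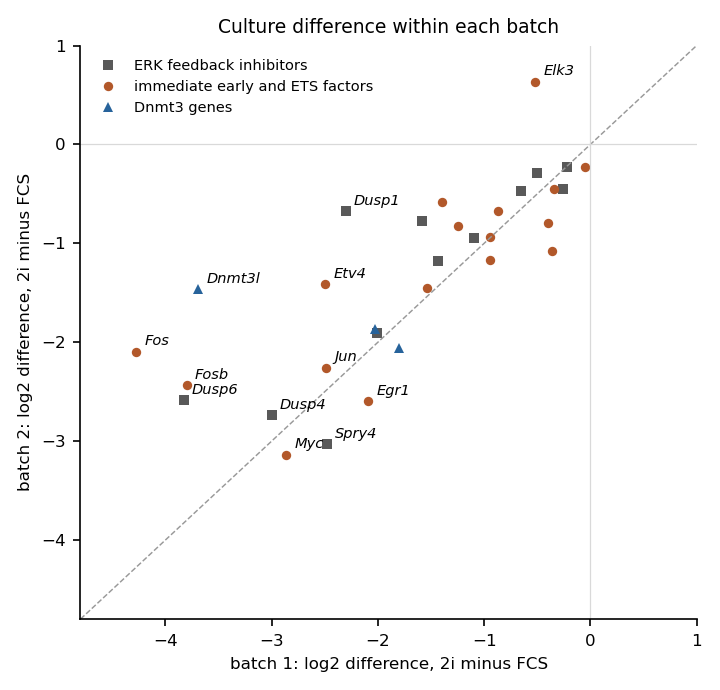
The log2 difference between 2i and FCS lines within batch 1 (2 against 2 arrays) and within batch 2 (3 against 3) for ERK feedback inhibitors (grey squares), immediate early and ETS factors (brown circles) and the Dnmt3 genes (blue triangles). Points on the dashed line have equal differences; Fos, Fosb, Dusp1 and Dnmt3l lie to the left of it, with larger falls in batch 1.

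Genes of the FGF pathway itself did not all move one way. Fgf4, the ligand that drives ERK in ES cells, was higher in 2i: FCS lines read 9.66, 9.74, 9.37, 9.25 and 9.15 and 2i lines 10.01, 9.97, 10.40, 9.87 and 9.89, and the difference was 0.59 ± 0.11 (SE; limma, adjusted p = 2.79e-04). All 2i lines lay above all FCS lines, though by a small margin, and batch 1 alone gave 0.29 and no call (adjusted p = 0.154). The receptor gene Fgfr2 fell by 2.01 ± 0.17, and the ligand genes Fgf15, Fgf5, Fgf17 and Fgf8 fell by 2.04, 1.82, 1.71 and 0.65. Fgfr1, the receptor gene of most ES cell FGF signalling, was not called at 0.14. In all, 1 of 9 members rose and 6 fell, with a median of -0.65.

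Contractile cytoskeleton genes had the next lowest median. Of 22 measured, 15 were called lower and 2 higher, with a median of -0.85. Their levels in fibroblasts and muscle depend on serum response factor (SRF), which binds the CArG box, and the Srf gene itself fell: it read 8.51, 8.77, 8.50, 8.72 and 8.81 in FCS lines and 7.08, 7.12, 7.42, 7.19 and 7.07 in 2i lines, and the difference was -1.49 ± 0.10 (SE; limma, adjusted p = 4.15e-09). Acta2 read 9.92, 8.48, 9.38, 9.11 and 9.08 in FCS and 5.13, 5.45, 4.89, 5.09 and 5.15 in 2i. Myl9, a myosin light chain, read 7.88, 7.34, 8.05, 8.56 and 8.68 in FCS and 5.56, 5.40, 4.77, 4.93 and 4.96 in 2i; the difference was -2.98 ± 0.20 (SE; limma, adjusted p = 2.33e-09). In both genes the cultures were well separated, and the 2i lines lay near background.

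Cnn2 and Cnn1, the calponins, fell by 2.10 and at least 1.78, Tagln by at least 1.96, Tpm1 and Tpm2, tropomyosins, by 1.64 and 1.31, the actins Actc1 and Acta1 by 1.16 and 1.09, and the focal adhesion genes Zyx and Vcl by 0.94 and 0.77. Mean levels of Tagln and Cnn1 in 2i were below background. Cytoplasmic beta-actin (Actb) was not called at -0.12 (adjusted p = 0.0557), and was called without 2i line 4 (adjusted p = 0.0447). Lima1 was called higher at 0.58, though not in batch 1 alone (adjusted p = 0.392), and Cnn3 at 0.29 lost its call without 2i line 1 (adjusted p = 0.0691), 2i line 2 (0.0546), 2i line 4 (0.0871), FCS line 2 (0.124) or FCS line 3 (0.0552).

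Promoters of 19 contractile genes were in the RefSeq promoter table (GRCm38.p6; 250 bases before to 50 after the start), and 6 of them (31.6%) held a CArG box on either strand, the motif being its own reverse complement, against 1.63% of all 32851 promoters in the table. The promoters of Myl9, Cnn2 and Srf are shown as examples of genes that hold the motif and fell; the motif is in capitals. The 6 contractile holders were Myl9, Cnn2, Acta1, Actc1 and Vcl, which fell, and Lima1, which rose. The match is a description of the letters and not of binding.
Myl9, chr2:156775214-156775513, plus strand: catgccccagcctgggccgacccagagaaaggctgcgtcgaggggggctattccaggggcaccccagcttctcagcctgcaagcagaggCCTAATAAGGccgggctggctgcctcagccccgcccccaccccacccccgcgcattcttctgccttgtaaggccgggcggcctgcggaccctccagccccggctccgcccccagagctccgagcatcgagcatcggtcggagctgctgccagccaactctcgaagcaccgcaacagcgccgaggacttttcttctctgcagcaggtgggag
Cnn2, chr10:79988350-79988649, plus strand: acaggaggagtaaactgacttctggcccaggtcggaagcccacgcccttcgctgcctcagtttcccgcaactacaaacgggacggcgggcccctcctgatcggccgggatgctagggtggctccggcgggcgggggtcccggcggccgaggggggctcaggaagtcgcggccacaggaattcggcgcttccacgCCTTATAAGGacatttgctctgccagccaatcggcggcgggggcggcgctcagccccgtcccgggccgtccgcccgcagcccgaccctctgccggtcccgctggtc
Srf, chr17:46556113-46556412, minus strand: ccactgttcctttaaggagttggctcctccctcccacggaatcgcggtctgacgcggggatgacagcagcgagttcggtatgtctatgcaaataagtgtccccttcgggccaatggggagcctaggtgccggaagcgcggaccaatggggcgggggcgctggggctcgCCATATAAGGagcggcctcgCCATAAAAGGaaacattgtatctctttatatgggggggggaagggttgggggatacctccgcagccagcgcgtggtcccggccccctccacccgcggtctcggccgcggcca
The first box in Myl9 began -161 bases from the start, that in Cnn2 -56 and that in Srf -82, negative values lying upstream, and Srf held 2 boxes. Over all 254 genes with such a promoter the share called lower was 17.7%, against 15.1% of all genes with a promoter, and the share called higher was 16.9% against 17.3%. 

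YAP-TEAD targets, which respond to cell spreading and stiffness, fell in 8 of 12 cases and rose in 0, with a median of -0.56. Ccn1 read 10.59, 9.98, 9.67, 9.44 and 9.45 in FCS lines and 8.33, 8.23, 7.83, 8.29 and 7.87 in 2i lines, with FCS line 1 the highest and no overlap; the difference was -1.72 ± 0.32 (SE; limma, adjusted p = 3.34e-04). Ccn2, a matricellular protein of the same family, fell by 1.51, F3, the coagulation initiator tissue factor, by 1.16 and Ajuba, a LIM protein, by 0.87. The TEAD factors Tead1 and Tead2 were not called, at -0.08 and 0.22, while Tead4 rose by 1.20.

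Adhesion and epithelial genes fell in 14 of 21 cases and rose in 2, with a median of -0.71. The tight junction gene Cldn6 read 8.56, 8.66, 8.69, 8.71 and 9.02 in FCS and 5.92, 5.92, 5.39, 6.75 and 6.76 in 2i, a clear separation, and the difference was -2.58 ± 0.28 (SE; limma, adjusted p = 7.94e-07). Krt18 and Krt19, keratins of simple epithelia, fell by 2.16 and 1.45, Epcam by 1.48 and the hyaluronan receptor gene Cd44, below background in all 2i lines, by at least 0.90. E-cadherin (Cdh1) was not called. It read 10.07, 10.25, 10.20, 10.36 and 10.41 in FCS and 10.08, 10.42, 9.86, 10.47 and 10.44 in 2i, with overlapping arrays and a difference of 0.00 ± 0.09 (adjusted p = 0.977). Itgav, an integrin subunit that binds fibronectin and vitronectin, rose by 0.76.

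Fibroblast markers were followed because only the FCS lines grew on fibroblasts. Of 15 such markers that are not contractile or stress genes, 12 were called lower and 0 higher in 2i, with a median of -0.34. The falls numbered 9 without FCS line 1 or FCS line 3, and 4 in batch 1 alone. The mean level of the 15 markers per array lay between 5.31 and 5.70 in FCS and between 4.89 and 5.17 in 2i. Col1a1, a chain of type I collagen, read 7.55, 6.33, 6.97, 6.51 and 6.54 in FCS and 5.56, 5.55, 5.47, 5.61 and 5.56 in 2i. FCS line 1 was highest and the 2i lines were nearly level; the difference was -1.23 ± 0.19 (SE; limma, adjusted p = 5.73e-05). Lum and Fap, also fibroblast markers, lay below background in both cultures, and Pdgfrb and Vim were not called at 0.12 and -0.13. The wider feeder list, with Thbs1, Acta2 and Tagln in it, had 19 falls and 2 rises among 25. Its falls numbered 16 without FCS line 1 or FCS line 3. Its rises numbered 0 without FCS line 2, and 1 without 2i line 1, 2i line 3, 2i line 5 or FCS line 5. Fewer feeder cells and less RNA per cell cannot be told apart in bulk RNA, and the part of feeder RNA in the falls of contractile, YAP-TEAD and matrix genes was not tested.

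**Figure D4:**
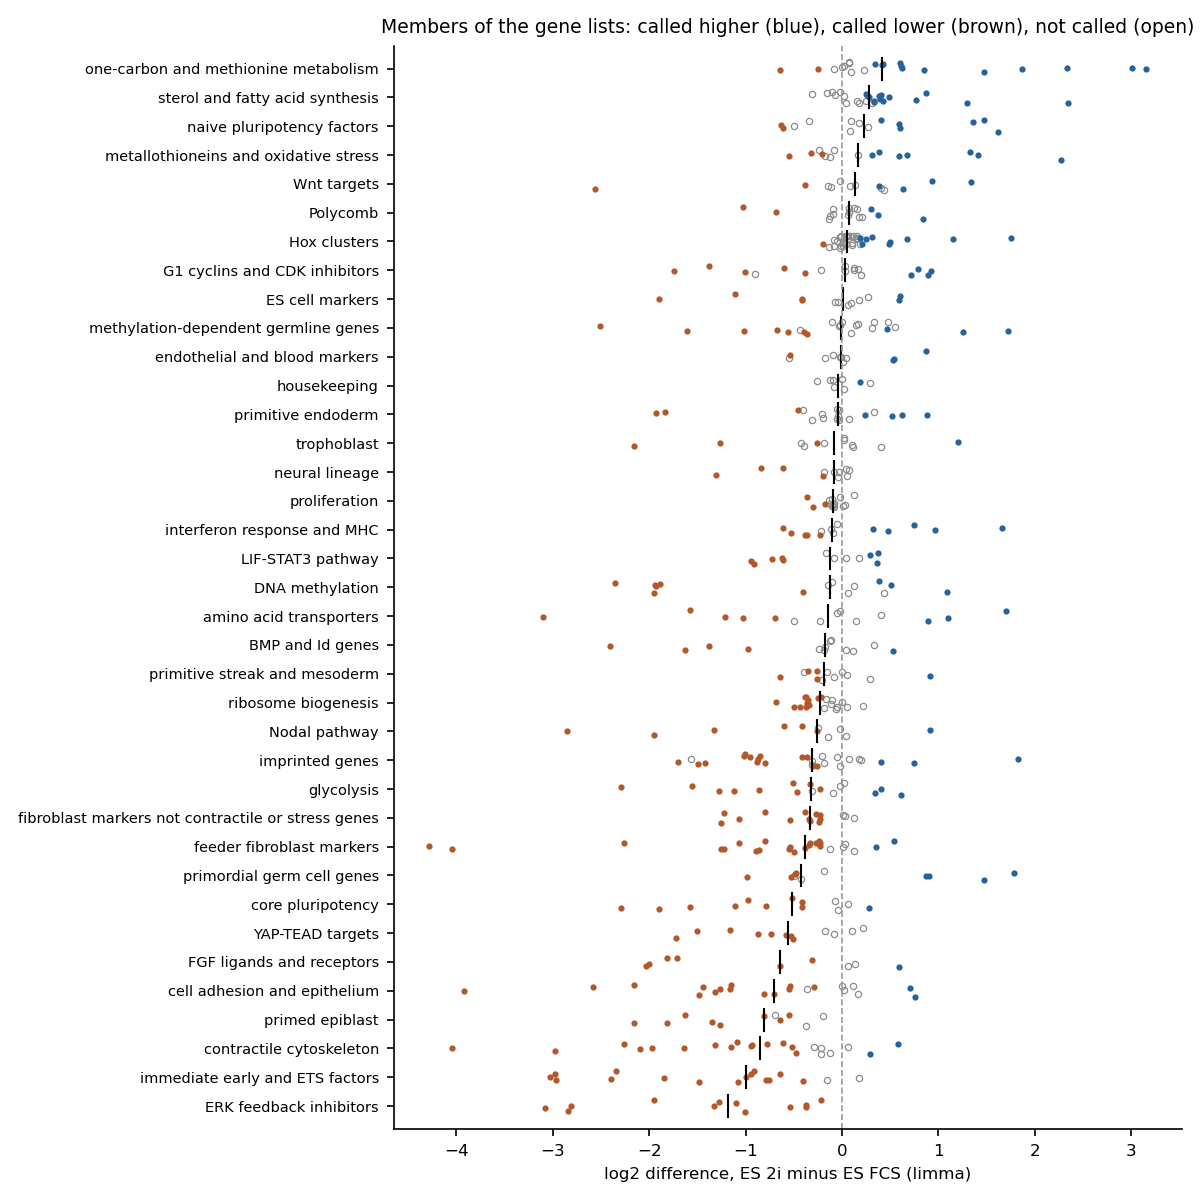
Each point is a member of a gene list at its log2 difference, 2i minus FCS; filled points were called (blue higher, brown lower) and open points not. Black bars are list medians and the dashed line is the median of all genes; ERK feedback inhibitors lie lowest with a median of -1.19 and 1-carbon genes highest with 0.42.

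DNA methylation genes split by role. The de novo methyltransferase genes fell, the maintenance enzyme was not called and its recruiting factor rose slightly. Dnmt3a (Entrez gene 13435, chromosome 12), a de novo enzyme, read 7.32, 8.75, 7.93, 8.43 and 8.28 in FCS lines and 5.89, 6.11, 6.34, 6.20 and 6.49 in 2i lines. FCS line 1 was the lowest of its culture yet above all 2i lines, and the difference was -1.93 ± 0.27 (SE; limma, adjusted p = 1.80e-05). Dnmt3b (Entrez gene 13436, chromosome 2), the second de novo enzyme, read 8.28, 9.08, 8.94, 9.19 and 9.34 in FCS and 6.88, 6.87, 6.74, 7.27 and 7.30 in 2i, again with FCS line 1 the lowest; the difference was -1.95 ± 0.22 (SE; limma, adjusted p = 1.24e-06).

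Dnmt3l (Entrez gene 54427, chromosome 10), the catalytically inactive cofactor of both, read 10.85, 11.10, 10.79, 10.44 and 10.39 in FCS and 6.57, 8.0, 7.47, 9.95 and 9.79 in 2i. Its 2i values ranged over more than 3 log2 units: lines 4 and 5 lay just under the FCS lines and line 1 lay far below all of them. The pooled difference was -2.36 ± 0.45 (adjusted p = 4.03e-04), with -3.69 within batch 1 and -1.47 within batch 2, where it was not called on its own (adjusted p = 0.0882). The interaction of culture and batch was not called for this gene either (2.22 ± 0.77, adjusted p = 0.316).

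Dnmt1, the maintenance methyltransferase, read 9.68, 9.71, 9.76, 9.80 and 9.75 in FCS and 9.78, 9.88, 10.03, 9.82 and 9.84 in 2i, a difference of 0.13 ± 0.06 (adjusted p = 0.142). Uhrf1, which brings Dnmt1 to newly copied DNA, read 9.70, 9.66, 9.72, 9.81 and 9.74 in FCS and 10.09, 9.99, 9.97, 10.27 and 10.21 in 2i; the groups did not overlap and the difference was 0.38 ± 0.07 (SE; limma, adjusted p = 1.97e-04). Among the TET oxidases of 5-methylcytosine, Tet1 fell by 0.41 (adjusted p = 0.00308; not called in batch 2 alone, adjusted p = 0.0647), while Tet2 at 0.44 (adjusted p = 0.155; called in batch 1 alone, adjusted p = 0.0411) and Tet3 at 0.06 (adjusted p = 0.65) were not called. The deaminase gene Apobec1 rose by 1.09 ± 0.09, the glycosylase gene Mbd4 rose by 0.51, and the stress genes Gadd45g and Gadd45a fell by 1.94 and 1.89. Of 14 members 3 rose and 6 fell.

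Prdm14, Tbx3, Tfcp2l1 and Nanog, factors of naive pluripotency, rose in 2i, while Pou5f1 and Sox2 were not called. Prdm14 (Entrez gene 383491, chromosome 1), a repressor of FGF receptor and de novo methyltransferase genes, read 7.84, 6.86, 7.55, 6.82 and 6.26 in FCS and 8.92, 8.30, 8.95, 8.22 and 8.27 in 2i. FCS line 1 was the highest of its culture, below every 2i line; the difference was 1.47 ± 0.21 (SE; limma, adjusted p = 1.81e-05). Tbx3, a T-box factor downstream of LIF, read 8.88, 7.09, 7.86, 7.61 and 7.15 in FCS and 9.74, 9.51, 9.01, 9.29 and 9.13 in 2i and the difference was 1.62 ± 0.28 (SE; limma, adjusted p = 1.77e-04). Tfcp2l1, a self-renewal factor, rose by 1.35 and Nanog by 0.60 ± 0.15 (adjusted p = 0.0036), with Nanog at 12.12, 11.52, 11.93, 11.60 and 11.60 in FCS and 12.43, 12.41, 12.24, 12.45 and 12.26 in 2i. In each of these 4 genes all 2i lines lay above all FCS lines, and the 2i lines were close together in Nanog.

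Pou5f1, the core factor Oct4, read 11.61, 11.59, 11.69, 11.61 and 11.60 in FCS and 11.56, 11.67, 11.66, 11.43 and 11.55 in 2i, with a difference of -0.05 ± 0.06 (adjusted p = 0.61). Sox2, its partner, differed by -0.08 (adjusted p = 0.451), Klf4 by 0.18 (adjusted p = 0.456) and Esrrb by 0.27 (adjusted p = 0.0538). Esrrb lay near the threshold and was called without FCS line 1 (adjusted p = 0.0121) and in the fit of the ES arrays alone (adjusted p = 0.0155). Klf2, which ERK is known to destabilise as a protein, fell at the RNA level by 0.64 ± 0.08 (adjusted p = 7.20e-06). In all 6 of 14 naive factors were called higher and 2 lower, with a median of 0.22.

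The list of core pluripotency genes was called lower more often than higher, 9 of 13 against 1 higher. Lin28a, which binds the precursors of let-7 microRNAs and prevents their maturation, read 9.27, 9.22, 9.27, 9.48 and 9.55 in FCS and 6.80, 6.39, 6.57, 7.72 and 7.86 in 2i. In 2i, lines 1 to 3 were lower than lines 4 and 5, and all lay below FCS; the difference was -2.29 ± 0.23 (SE; limma, adjusted p = 4.71e-07). Lin28b fell by 1.58, and the chromatin genes Utf1, Dppa4 and Dppa2 by 1.90, 1.11 and 0.98.

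Genes of the primed epiblast, the state after implantation, fell in 8 of 11 cases and rose in 0, with a median of -0.81. Fgf5 read 6.09, 6.60, 7.29, 7.08 and 7.30 in FCS and 5.14, 5.33, 5.15, 4.79 and 4.87 in 2i, and the difference was -1.82 ± 0.20 (SE; limma, adjusted p = 8.62e-07); its difference was -1.11 in batch 1 and -2.29 in batch 2. The Sox factors Sox11, Sox4 and Sox3 fell by 1.63, 1.35 and 0.64. Otx2 was not called (-0.70, adjusted p = 0.114): 2i line 3 read 8.37, above all FCS lines, and the other 2i lines 6.16 to 6.88. Without 2i line 3 its difference was -1.0 (adjusted p = 0.015), and it was called.

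**Figure D5:**
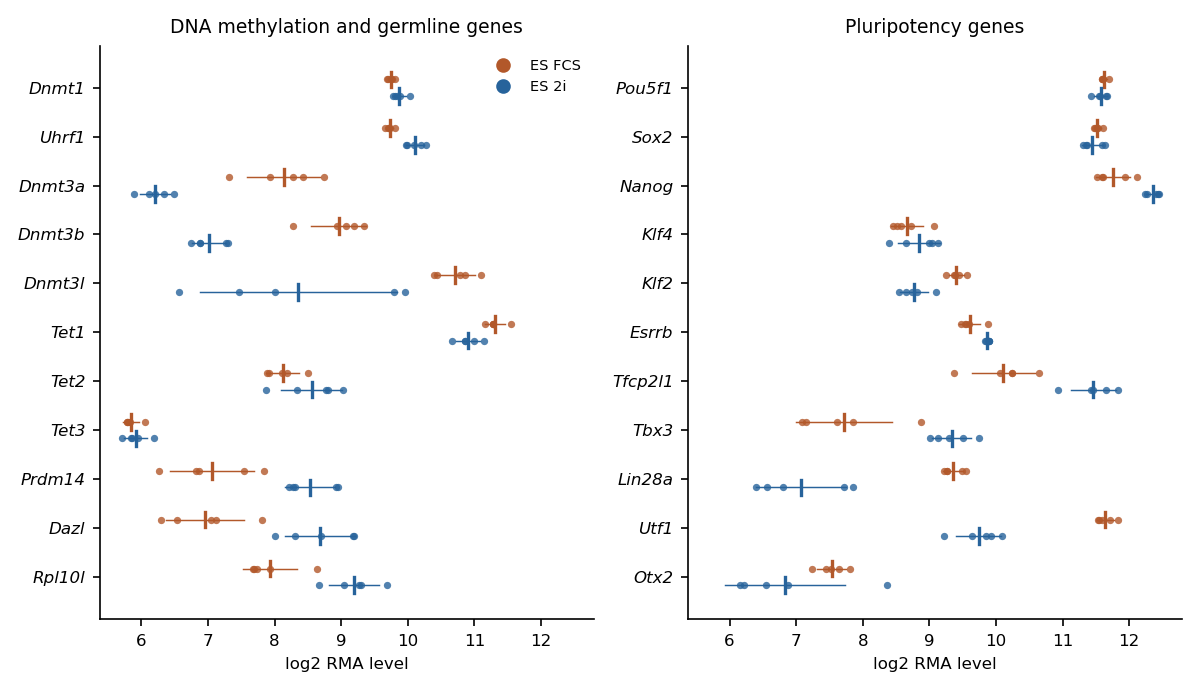
DNA methylation and germline genes (left) and pluripotency genes (right) as log2 RMA levels. Points are arrays (5 per culture), vertical bars means and horizontal lines the SD; Dnmt3a and Dnmt3b separate by culture, Dnmt3l spreads from 6.57 to 9.95 in 2i, and Pou5f1 and Sox2 overlap.

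Signalling pathways that maintain or direct ES cells showed mixed changes. In the Nodal pathway 1 of 11 genes rose and 6 fell. The falls numbered 4 without 2i line 4, and 5 without 2i line 2, 3 or 5 or FCS line 2, 3 or 5. They numbered 5 in batch 1 alone and 3 in batch 2 alone. Lefty1 read 8.56, 10.08, 9.47, 9.57 and 9.46 in FCS and 5.53, 5.11, 9.56, 5.50 and 7.19 in 2i. Line 3 lay among the FCS lines while the other 2i lines were below all of them, and the difference was -2.85 ± 0.63 (SE; limma, adjusted p = 0.00143) with line 3 and -3.59 without it; batch 2 alone gave no call (adjusted p = 0.0814). Skil, a feedback repressor of the pathway, fell evenly, at 8.65, 9.68, 9.20, 9.21 and 9.33 in FCS and 6.93, 7.46, 7.42, 7.04 and 7.47 in 2i (-1.95 ± 0.22, adjusted p = 1.23e-06). Nodal itself was not called at -0.15, and Smad3, a signal transducer, rose by 0.91.

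Among BMP and Id genes 4 of 13 fell and 1 rose. Serum supplies BMP, and the Id genes are its targets. Bmp4 read 9.23, 7.87, 8.79, 8.76 and 8.78 in FCS and 6.30, 6.07, 5.90, 6.38 and 6.74 in 2i; the difference was -2.41 ± 0.27 (SE; limma, adjusted p = 1.54e-06). Id1 and Id3 fell by 1.63 and 1.38.

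GSK3 inhibition acts on the Wnt pathway. Its target list rose in 4 and fell in 2 of 13 genes, with a median of 0.13. The rises numbered 6 without 2i line 3. They numbered 3 without 2i line 4, 2i line 5, FCS line 2, FCS line 4 or FCS line 5. The falls numbered 1 without 2i line 1, 2 or 3 or FCS line 1, 2, 4 or 5. Axin2, a negative regulator and the standard target, read 6.44, 6.10, 6.16, 6.08 and 6.44 in FCS and 7.81, 7.38, 6.47, 8.07 and 8.18 in 2i. Line 3 was the lowest 2i line at just above the highest FCS line, and the difference was 1.34 ± 0.25 (SE; limma, adjusted p = 2.83e-04). Lef1, a factor that partners beta-catenin, went the other way, at 7.33, 8.48, 7.94, 8.44 and 8.68 in FCS and 5.44, 5.28, 5.10, 5.98 and 6.22 in 2i (-2.57 ± 0.30, adjusted p = 1.85e-06). Tcf7l1 was not called at 0.13.

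LIF was present in both media. Of 12 LIF-STAT3 genes 3 rose and 5 fell, each by less than 2-fold, and the rises numbered 1 without 2i line 3 or FCS line 2. Junb fell by 0.94 and Pim3, a kinase gene, by 0.72, while Stat3 and the receptor gene Lifr were not called at -0.17 and 0.04.

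With both directions counted together, lineage markers changed in shares near the background of 31.6%. By direction, falls made up a larger share of the streak and neural lists than the 14.9% of all genes. These lists are small and the shares were not tested. Streak and mesoderm genes rose in 1 and fell in 4 of 12, with the rise in the organiser gene Gsc (0.91). The rises numbered 2 without 2i line 3 and the falls 2 without 2i line 4, FCS line 3 or FCS line 5. Neural genes fell in 4 of 11, led by Pax6 (-1.31) and Nes (-0.84), and rose in 0. In the primitive endoderm list 4 rose and 3 fell of 18. The falls were led by the laminin gene Lamb1 (-1.93) and the endocytic receptor gene Lrp2 (-1.84). No fit that left out 1 ES array kept 4 rises. Their count was 2 without 2i line 4, 2i line 5 or FCS line 5, and 3 without any other. The regulators Gata6 and Sox17 were not called at 0.07 and -0.04. Trophoblast genes rose in 1 (2 without 2i line 3) and fell in 3 (1 without FCS line 3) of 12. Of 11 endothelial and blood markers 3 rose and 1 fell (2 without 2i line 4 or FCS line 2). Pecam1, which ES cells also express, rose by 0.88. Means of 6 of the 11, the leukocyte gene Ptprc among them, lay below background in both cultures. Of the 2-cell-like list 3 of 11 genes were measured and 0 were called higher and 0 lower (1 without FCS line 1 or FCS line 5).

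Germline genes that depend on DNA methylation for silencing were called in both directions: 3 of 22 were called higher and 7 lower, with a median of -0.01. Dazl (Entrez gene 13164, chromosome 17), a translational regulator of germ cells, read 7.81, 7.12, 7.04, 6.53 and 6.30 in FCS and 9.18, 8.30, 9.20, 8.70 and 8.01 in 2i. FCS line 1 and 2i lines 1 and 3, all female, were the highest of their cultures. Female FCS line 3 lay just below male FCS line 2. The difference between the cultures was 1.72 ± 0.23 (SE, limma, adjusted p = 1.20e-05). Rpl10l, a testis ribosomal protein gene, rose by 1.25. In the other direction Mael, which acts in the piRNA pathway, read 8.54, 8.84, 8.89, 8.30 and 8.15 in FCS and 6.24, 6.71, 6.17, 5.47 and 5.56 in 2i (-2.51 ± 0.22, adjusted p = 7.37e-08), and the helicase gene Ddx4 fell by 1.61 and Mov10l1 by 1.02. Among 11 primordial germ cell genes 4 rose and 4 fell. Kit, the stem cell factor receptor gene, read 9.45, 8.33, 8.49, 8.75 and 8.74 in FCS and 10.69, 10.67, 9.98, 10.77 and 10.57 in 2i, and the difference was 1.78 ± 0.22 (SE; limma, adjusted p = 5.02e-06). Alpl, tissue-nonspecific alkaline phosphatase, rose by 0.90, and Prdm1, a germ cell specifier, fell by 0.98.

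Imprinted genes fell more often than they rose, 14 against 3 of 27 measured, with a median of -0.31. Peg3, a zinc finger gene expressed from the paternal copy, read 8.86, 8.68, 9.36, 8.94 and 9.04 in FCS and 7.40, 6.77, 7.63, 7.32 and 7.23 in 2i; the difference was -1.71 ± 0.13 (SE; limma, adjusted p = 1.66e-08). Zdbf2, Dlk1 and Cdkn1c fell by 1.42, 1.02 and 1.0. Plagl1, a zinc finger factor, had the largest rise among them, at 7.96, 5.91, 7.78, 6.64 and 6.56 in FCS and 9.43, 8.65, 8.71, 8.80 and 8.40 in 2i. FCS lines 1 and 3, both female, were the highest of their culture, and the difference was 1.83 ± 0.32 (SE; limma, adjusted p = 1.92e-04).

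Polycomb components were mostly not called: of 16 genes 3 rose (5 without FCS line 1) and 2 fell. Ezh2, the enzyme of PRC2, was not called at 0.06, and the accessory genes Phf19 and Jarid2 fell by 1.02 and 0.68. Bmi1, a PRC1 member, rose by 0.84. Hox genes, classical Polycomb targets, were called higher in 9 and lower in 1 of 36. In 9 of the 36, counted whether called or not, the means of both cultures lay below background. The fall was in Hoxb6 at -0.20 and the count of falls was 0 without 2i line 1, 2i line 2, 2i line 4, 2i line 5, FCS line 1, FCS line 2, FCS line 3 or FCS line 5. The largest rises among them were in the HoxC cluster. Hoxc12 read 5.49, 5.12, 4.62, 4.90 and 4.92 in FCS and 6.55, 6.15, 6.33, 7.52 and 7.25 in 2i, with 2i lines 4 and 5 the highest; the difference was 1.75 ± 0.21 (SE; limma, adjusted p = 2.83e-06). Hoxc13 rose by 1.15 and Hoxc4 by 0.67.

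Metabolic genes rose in more than 1 pathway. Folate and methionine (1-carbon) genes rose in 12 of 21 cases and fell in 2, with a median of 0.42; the falls numbered 0 without 2i line 4, and 1 without 2i line 1, 2i line 2, 2i line 5, FCS line 1, FCS line 2, FCS line 4 or FCS line 5. Beside Dmgdh and Bhmt, Bhmt2 rose by 2.33, the transsulphuration genes Cbs and Cth by 1.86 and 1.48, and methionine synthase (Mtr) by 0.85. Cbs read 7.11, 7.0, 6.67, 7.08 and 6.87 in FCS and 8.73, 8.78, 8.08, 9.42 and 9.06 in 2i, with line 3 the lowest 2i line (1.86 ± 0.17, limma, adjusted p = 1.69e-07). Sterol and fatty acid synthesis genes rose in 14 of 25 cases and fell in 0, with a median of 0.28. The count of rises was 9 without 2i line 2 or 2i line 3. Scd1, a stearoyl-CoA desaturase, read 8.69, 8.73, 8.82, 9.03 and 9.21 in FCS and 11.30, 11.29, 11.25, 11.28 and 11.04 in 2i. All 2i lines lay far above all FCS lines; the difference was 2.34 ± 0.14 (SE; limma, adjusted p = 7.17e-10). Scd2 rose by 1.30 and the regulator Srebf1 by 0.87.

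Glycolysis genes fell in 9 of 16 cases and rose in 3. Pdk1, which holds pyruvate back from the mitochondria, read 9.98, 10.15, 9.31, 9.76 and 9.76 in FCS and 6.69, 7.15, 7.48, 7.91 and 8.28 in 2i. The fall was larger in batch 1 (-3.15) than in batch 2 (-1.72), and the difference was -2.29 ± 0.21 (SE; limma, adjusted p = 1.39e-07). The lactate exporter Slc16a3 and the glucose transporter Slc2a1 fell by 1.55 and 0.86, while the phosphofructokinase gene Pfkp rose by 0.61. Redox genes rose in 7 and fell in 3 (1 without 2i line 4) of 15. Nqo1, a quinone reductase, read 8.0, 7.39, 7.48, 7.03 and 6.96 in FCS and 9.79, 9.47, 9.76, 9.60 and 9.58 in 2i (2.27 ± 0.13, limma, adjusted p = 3.61e-10), catalase (Cat) rose by 1.33, and haem oxygenase (Hmox1) fell by 0.55. Amino acid transporters went both ways, 3 higher and 5 lower of 14, with the cationic transporter Slc7a1 rising by 1.70 beside the fall of Slc7a7 and the glutamate transporter Slc1a3 falling by 1.58.

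Ribosome biogenesis genes, many of them Myc targets, fell in 11 of 20 cases, each by less than 2-fold, and rose in 0 (1 without 2i line 3). The falls numbered 1 in batch 1 alone and 11 in batch 2 alone, against 1351 and 2858 over all genes. Ddx21, a nucleolar helicase, fell by 0.68 ± 0.10. Of proliferation markers, 3 of 15 were called lower and 0 higher; Mki67 differed by -0.36 (adjusted p = 0.00296). Among G1 regulators 4 rose and 5 fell of 17. Cyclin E1 (Ccne1) read 10.42, 10.61, 10.58, 10.74 and 10.69 in FCS and 9.18, 9.05, 9.47, 9.25 and 9.16 in 2i, and the difference was -1.39 ± 0.07 (SE; limma, adjusted p = 1.76e-10). Cyclin D2 (Ccnd2) fell by 1.74, and the inhibitors of G1 progression Cdkn1b and Rbl1 rose by 0.89 and 0.92. In these genes the cultures did not overlap in any array.

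Interferon and MHC genes gave 5 rises and 5 falls (3 without FCS line 5) among 14. Oas1a, a sensor of double-stranded RNA, rose by 1.66 ± 0.18 and B2m, the light chain of MHC class I, by 0.96, with FCS line 1 at 8.76 overlapping 2i line 3 at 8.66. Of 8 housekeeping genes 1 was called higher and 0 lower (1 without 2i line 4). It was Sdha at 0.19, whose call ended without 2i line 1 (adjusted p = 0.0819), 2i line 2 (0.0636), 2i line 3 (0.109), 2i line 5 (0.086), FCS line 2 (0.106), FCS line 3 (0.0581), FCS line 4 (0.0685) or FCS line 5 (0.079).

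Sex and batch of the lines were tested against the culture effect within the 10 ES arrays. The interaction of culture and sex called 0 genes by limma (smallest adjusted p = 0.237) and 1709 at an unadjusted p under 0.05. This count turned on single arrays: it was 262 without 2i line 1, which leaves line 3 as the sole female 2i line, 60 without 2i line 2, 4 without FCS line 1 and 2 without FCS line 3. The interaction of culture and batch called 22 genes (0.11%), 12 with a more positive difference in batch 2 and 10 with a more negative one. The first 4 in the former direction were Fosb, Ndufa4l2, Dusp1 and Fos, with differences of the differences of 1.37, 1.37, 1.63 and 2.18 (adjusted p = 0.00587, 0.00589, 0.00888 and 0.0132, limma). Ndufa4l2, a mitochondrial protein induced by hypoxia, differed by -1.47 in batch 1 and -0.09 in batch 2. In the latter direction they were the lipid transporter gene Mfsd2a (-0.14 and -1.09), the kindlin gene Fermt1 (-0.52 and -1.88), Spink1 (-0.13 and -1.34) and Ap1s3 (-0.85 and -2.02). Mean levels of Ndufa4l2, Mfsd2a and Spink1 in 2i lay below background, so their differences carry only a bound. The count of 22 too rested on single arrays, being 219 without 2i line 3, 0 without 2i line 2 and 0 without FCS line 5. It was 2 without 2i line 1, 5 without 2i line 4 or FCS line 4, 7 without FCS line 2, and 10 without 2i line 5 or FCS line 1.

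The culture difference of ES lines was set against that of EG lines of the same strain label, derived directly in 2i or derived in FCS (4 arrays each), which share no array with the ES groups. By limma 287 genes (1.44%) had a different response, 113 of them more positive and 174 more negative in EG lines, and 41 of them were among the 768 genes called at 2-fold in ES lines. The split moved with scaling: it was 98 to 290 when arrays were centred on their medians and 104 to 102 after quantile normalization again. Cth, the transsulphuration enzyme, differed by 1.48 in ES and 0.26 in EG lines (-1.21 ± 0.15, adjusted p = 0.00132). The neutral amino acid transporter gene Slc43a1 differed by -1.21 in ES and 0.41 in EG lines (adjusted p = 0.00246), and the orphan nuclear receptor gene Nr6a1 by -0.97 and 0.22 (adjusted p = 0.00358). When EG lines that began in FCS before 2i took the place of those derived directly in 2i, 6 genes were called, Cth among them (adjusted p = 0.00736), while Slc43a1 (adjusted p = 0.123) and Nr6a1 (adjusted p = 0.154) were not. The count fell to 110 without ES FCS line 4, 112 without ES FCS line 5, 180 without ES 2i line 4 and 178 without ES 2i line 5. All EG arrays carried the label batch 1, and the EG 2i lines were mostly female and the EG FCS lines mostly male.

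The share of genes called differed between classes of promoter CpG content. Among genes with RefSeq promoters of 300 bases that held at most 4 CpG dinucleotides, 5.00% were called higher and 3.60% lower in 2i (3559 genes). With 10 to 14 CpG these shares were 22.8% and 15.2% (1560 genes), and with 25 or more 21.2% and 23.7% (4608 genes). Restricted to genes above background the shares were 9.22% and 6.01% in the lowest class, 26.4% and 17.1% in the middle class and 22.2% and 24.7% in the highest. Rises outnumbered falls in the lower classes and falls outnumbered rises in the class of most CpG. At 2-fold or more the shares in the highest class were 1.95% and 2.41%. No test was made of these shares, which are counts over genes and not over samples.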

How the data were processed

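RNA of 22 samples was measured on Affymetrix mouse gene arrays from 100 ng of total RNA, per the labels' protocols. The authors deposited log2 values made with RMA in Affymetrix Expression Console, per the submitters' processing notes, which also name limma; the sources used here do not give versions, genome build or any batch adjustment. RMA normalizes arrays to 1 distribution, so a change of total RNA per cell is not visible, and with 5 arrays a culture the number of arrays limits the precision. The table held 28853 probe sets: 21789 named 1 gene, 1621 several and 5443 none. Where several named 1 gene, that of the highest mean level across the arrays was taken (19938 genes). limma 3.58.1 (R 4.3.3) fitted group, batch and sex to the log2 values of all 22 arrays, with lmFit, eBayes and Benjamini-Hochberg adjustment over all genes. Interactions of culture with sex and with batch were fitted in the 10 ES arrays. Summaries used Python 3.11.15, numpy 2.4.6, pandas 2.3.3 and matplotlib 3.10.9. No array pair was identical (0 pairs), and within a culture arrays correlated at 0.979 to 0.998 over genes.

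The members and gene lists were chosen with earlier results of these data known. Named were the 12 largest called changes in each direction without overlap, up to 3 called members per list and direction with the smallest adjusted p, 4 genes per interaction and direction, and some further members by their role, chosen after their values were seen. Alternatives were other normalizations, probe set rules, model terms, single batches, EG lines moved to 2i, a replicate block and leaving out arrays. The fits were tested on simulated data of the same design, with independent noise, few changed genes and no outlying array. There the ES comparison recovered 38 of 50 genes changed by 0.5 on the log2 scale and 50 of 50 changed by 1. The culture by sex interaction recovered 32 of 50 changed by 1, and that with batch 39 of 50. These counts need not hold for the real arrays, where 31.6% of genes were called and 2i line 3 stood apart.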

Additional observations from a re-analysis of the deposited data

Results flagged for a closer look

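Of 384 gene and culture groups of 5 arrays named in the text, 22 had 1 array far from the other 4. The gap was more than 0.71 of the group's range. Chance flags about 1 in 20 groups, and 22 of 384 lies near that share. A single entry therefore need not mark an unusual array. Most of them came from lines 1 and 3. In 2i line 3 these were B2m (8.66, nearest 9.07), Bhmt (6.30, nearest 8.46), Bhmt2 (6.04, nearest 7.58), Dusp4 (5.67, nearest 4.74), Fgf4 (10.40, nearest 10.01) and Kit (9.98, nearest 10.57). In FCS line 3 they were Cdkn1b (7.02, nearest 7.61), Ezh2 (10.63, nearest 10.81), Phf19 (7.22, nearest 6.34), Pou5f1 (11.69, nearest 11.61), Rpl10l (8.64, nearest 7.93), Spred1 (8.01, nearest 8.65), Tet3 (6.06, nearest 5.82) and Xist (6.34, nearest 5.05), and in FCS line 1 Acta1 (8.33, nearest 6.98), B2m (8.76, nearest 7.99), Hoxc13 (5.58, nearest 5.08), Slc27a2 (7.93, nearest 9.26) and Srebf1 (6.92, nearest 7.15). In 2i line 1 they were Slc16a3 (5.97, nearest 7.10) and in 2i line 5 Scd1 (11.04, nearest 11.25) and Slc39a14 (5.44, nearest 5.15).

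The response to 2i differed between EG and ES lines by a test of the difference in 287 genes. The 8 described here had the smallest adjusted p, 4 in each direction, and are given as the EG difference minus the ES difference on the log2 scale. It was more positive in EG lines for Slc43a1 (1.63), Nr6a1 (1.19), Peg12 (0.87) and Arhgef40 (0.51). It was more negative for Cth (-1.21), Rai14 (-0.88), Nrm (-0.77) and Ssu72 (-0.55). Rai14 differed by 0.02 in ES and -0.87 in EG lines, and Nrm by 0.79 and 0.02.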

How the results depend on the processing

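Of 253 genes followed under 26 other settings, 224 were called in the comparison of the cultures and kept their sign. Among them 194 kept their call in every fit that left out 1 ES array. Over all genes 4800 were called in every such fit, against 6298 in the main fit. The 1 reversal among the followed genes was Elk3, not called at 0.17 and called at -0.52 in batch 1 alone. Its cause was not tested. Batch 1 alone, with fewer arrays, gave 2921 called genes in place of 6298 and kept 186 of the followed calls; batch 2 alone kept 201. Leaving out 1 ES array gave 5546 to 6163 called genes, 0 to 262 for the interaction with sex, 0 to 219 for that with batch, and 110 to 390 for the difference between EG and ES lines. Leaving out both arrays of a number, an alternative chosen after seeing the data, gave 4992 to 5926. The EG and ES difference called 6 genes with EG lines moved to 2i and 438 without batch and sex terms, against 287; the cause was not tested. The correlations of deviations of same-numbered arrays were 0.05, -0.01, 0.17, 0.05 and 0.24 in lines 1 to 5. The highest of each FCS array with a 2i array of another number were 0.10, 0.11, 0.25, 0.21 and 0.04. Only in line 5 was each array the best match of the other. These values do not settle whether equal numbers mark the same line. With the replicate block 5900 genes were called, 5504 of them shared, with 0 and 6 for the interactions with sex and with batch. Array brightness over background limits genes near 4.88, and 147 called genes had means below it in both cultures.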
